A study of Mus musculus with 32 samples.

Results

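The IFIT family (interferon-induced proteins with tetratricopeptide repeats) was followed in bone marrow-derived macrophages (BMDMs) in which *Trex1* was deleted in culture. Its members were the rows of the deposited gene table whose Ensembl identifiers map to *Ifit1*, *Ifit1bl1*, *Ifit1bl2*, *Ifit2*, *Ifit3* and *Ifit3b*, which gave 6 of 54281 genes. The rule uses no expression value, though the family was taken up with earlier results of these data known, and all 6 passed the filter on low counts that left 15257 genes for testing. BMDMs are macrophages grown from mouse bone marrow, and the cells of all groups carried *R26* CreERT2, a Cre recombinase that becomes active when 4-hydroxytamoxifen (4-OHT) binds to it. The groups compared were *Trex1* FL/FL cells, in which Cre can remove both *Trex1* alleles, and *Trex1* WT/FL cells, which keep a wild type allele but can lose the floxed one. Cells of either genotype were cultured for 22 h with 4-OHT at 2 µg/ml or without it, and RNA was taken on days 1, 2, 3 and 4 after the exposure ended. The 16 groups had 2 libraries each, 32 in all. Their labels name neither the animals nor their age, so that p-values measure the spread between libraries, which may be technical. The 2 libraries of a group are given below in an order that only names them.

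IFIT proteins carry no known enzyme activity and act by binding RNA and other proteins through their helical repeats. IFIT1 holds the capped 5′ end of RNA that lacks ribose methylation next to the cap and blocks its translation, which lets cells tell many viral RNAs from their own. IFIT genes are among the most strongly interferon-inducible genes of macrophages: factors activated by interferon receptors bind interferon-stimulated response elements (ISREs) before their start sites, and IRF3 can also switch some of them on without interferon. TREX1 is a DNA exonuclease whose loss leaves DNA that can activate cGAS and STING, upstream of IRF3.

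The total count per library ranged from 35120505 to 63760884 (median 44841991). *Trex1*, the deleted gene, held 0 to 14 counts in the libraries of 4-OHT-treated FL/FL cells, against 758 to 3622 in 4-OHT-treated WT/FL cells. Untreated FL/FL libraries held 1811 to 5746 and untreated WT/FL libraries 1174 to 6553 *Trex1* counts. The macrophage markers were abundant in every library, with *Adgre1* at 952 or more CPM (counts scaled to library size with TMM factors) and *Csf1r* at 1313 or more. Of 27 markers of 8 other cell types, 20 stayed below 1 CPM in every library, and the highest value of any of them was 7.99 CPM, for *S100a9*. Defining markers of T cells (*Cd3e*, at 0 in 31 libraries), natural killer cells (*Ncr1*, at 0 in all 32) and plasmacytoid dendritic cells (*Siglech*, 0.388 CPM at most) were at or near 0.

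The 6 genes lie in a single cluster of 111.9 kb on chromosome 19, from 34527932 to 34639833 in GRCm39 with the GENCODE vM39 annotation, all as protein-coding genes. *Ifit2* (ENSMUSG00000045932, 34527932 to 34554524), *Ifit3* (ENSMUSG00000074896, 34560899 to 34566443), *Ifit3b* (ENSMUSG00000062488, 34585328 to 34590801) and *Ifit1* (ENSMUSG00000034459, 34618271 to 34632174) are on the plus strand. *Ifit1bl1* (ENSMUSG00000079339, 34570291 to 34579356) and *Ifit1bl2* (ENSMUSG00000067297, 34594449 to 34639833) are on the minus strand. The whole of *Ifit1* falls within an intron of the longer of 2 annotated *Ifit1bl2* transcripts, without overlap of exons. The shorter *Ifit1bl2* transcript starts at 34618143, so that it and *Ifit1* start back to back with 127 bases between them.

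**Figure D1:**
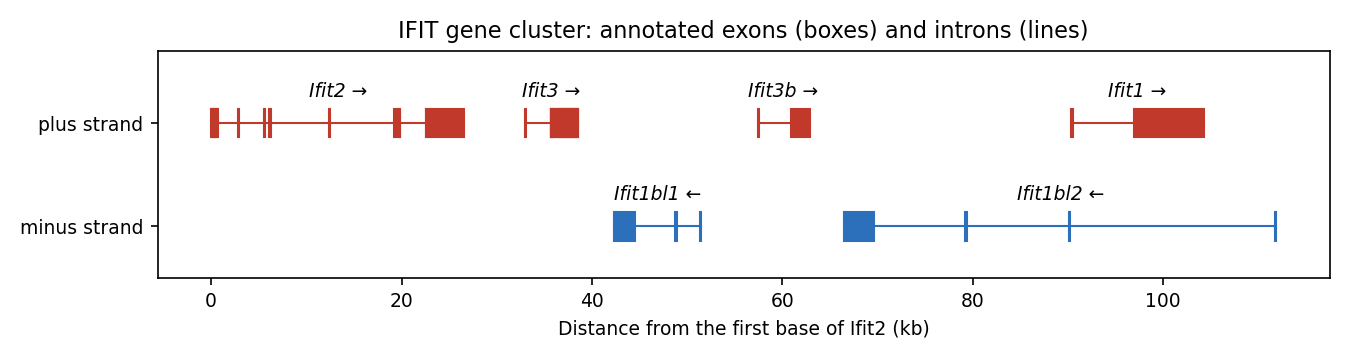
Map of the IFIT cluster drawn to scale, with the distance from the first base of *Ifit2* in kb on the horizontal axis and the 2 strands as rows, where boxes are annotated exons, lines introns and arrows the direction of transcription. The cluster spans 111.9 kb, and *Ifit1* on the plus strand sits inside the span of *Ifit1bl2* on the minus strand.

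Start regions are shown because all 6 members were higher in FL/FL than in WT/FL cells on day 4 after 4-OHT. An ISRE core (GAAA, any 2 bases, GAAA, searched on both strands) was also found before 5 of the 6 genes. The printed sequences were read from GRCm39 before start sites of GENCODE vM39, and capitals mark the core. RefSeq promoter windows (250 bases before the start, built on GRCm38.p6) were searched too and placed on GRCm39 by exact match. All 9 RefSeq windows of the 6 members matched at a single position. The stretch between the starts of *Ifit1* and *Ifit1bl2* is printed on the plus strand (chr19:34618144-34618270), those of *Ifit3* (chr19:34560758-34560831) and *Ifit3b* (chr19:34585154-34585227) on the plus strand, and both of *Ifit1bl1* (chr19:34579448-34579487 and chr19:34576826-34576865) on the minus strand.
Ifit1 and Ifit1bl2: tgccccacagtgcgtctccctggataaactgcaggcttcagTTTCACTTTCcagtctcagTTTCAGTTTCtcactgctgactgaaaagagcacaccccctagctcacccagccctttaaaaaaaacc
Ifit3: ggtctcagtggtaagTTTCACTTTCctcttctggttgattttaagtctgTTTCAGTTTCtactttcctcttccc
Ifit3b: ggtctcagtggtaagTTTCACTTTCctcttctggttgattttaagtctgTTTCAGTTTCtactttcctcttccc
Ifit1bl1, outer start: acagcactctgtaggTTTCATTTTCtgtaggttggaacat
Ifit1bl1, inner start: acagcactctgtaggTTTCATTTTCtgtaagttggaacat

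*Ifit1* and *Ifit1bl2* have the same 2 cores between them. The 74 bases printed for *Ifit3* and *Ifit3b* are identical, and they hold the same pair of 10-base core sequences as the *Ifit1* stretch. Each *Ifit1bl1* start had a single core of another sequence. No core was found before *Ifit2* in either of its 2 RefSeq windows or before any of its 7 annotated GENCODE starts, which says only that these letters are not in those windows. Of all 32851 RefSeq windows of that length, 2.98% held the core and 0.18% held 2 or more. Counted per gene, as the members were, 3.46% of 27025 RefSeq genes had a window with the core. Of 21575 GENCODE protein-coding genes, 7.05% had a start with it.

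The authors assigned reads to transcripts with Salmon, and members that share sequence share reads, so the division between them is an estimate. Of the 31-base words in the annotated transcripts of *Ifit3b*, 57.8% also occur in *Ifit3*, and 39.1% of those of *Ifit3* occur in *Ifit3b*. Other genes hold 19.3% of the words of *Ifit1bl1* and 16.8% of those of *Ifit1bl2*, and this pair has 412 words in common. *Ifit1*, which held far more counts, has 240 words (6.86%) of *Ifit1bl2* and 137 words (6.22%) of *Ifit1bl1*. The part of this overlap in the low counts of *Ifit1bl2* was not tested. *Ifit1*, at 6.33%, and *Ifit2*, at 0.236%, were counted mostly from sequence of their own. The study's qPCR primers for *Ifit3* are shown because they meet this overlap.
Forward primer: tgaactgctcagcccaca
Reverse primer: tcccggttgacctcactc

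The forward primer matched only *Ifit3* exactly among all annotated transcripts, and *Ifit3b* differed from it at 5 or more of its 18 bases. The reverse primer matched both genes.

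In the plot of levels by day, the 4 arms were close on day 1 and rose to day 2, when 4-OHT-treated FL/FL cells already stood above the other arms. In 4-OHT-treated FL/FL cells, *Ifit1*, *Ifit2* and *Ifit1bl1* stayed near their day 2 level to day 4. From day 2 to day 4 the group mean there rose from 1186 to 1622 CPM for *Ifit3* and from 239 to 357 CPM for *Ifit3b*, and that of *Ifit1bl2* fell. In the other arms, the group mean of every member fell from day 3 to day 4.

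**Figure D2:**
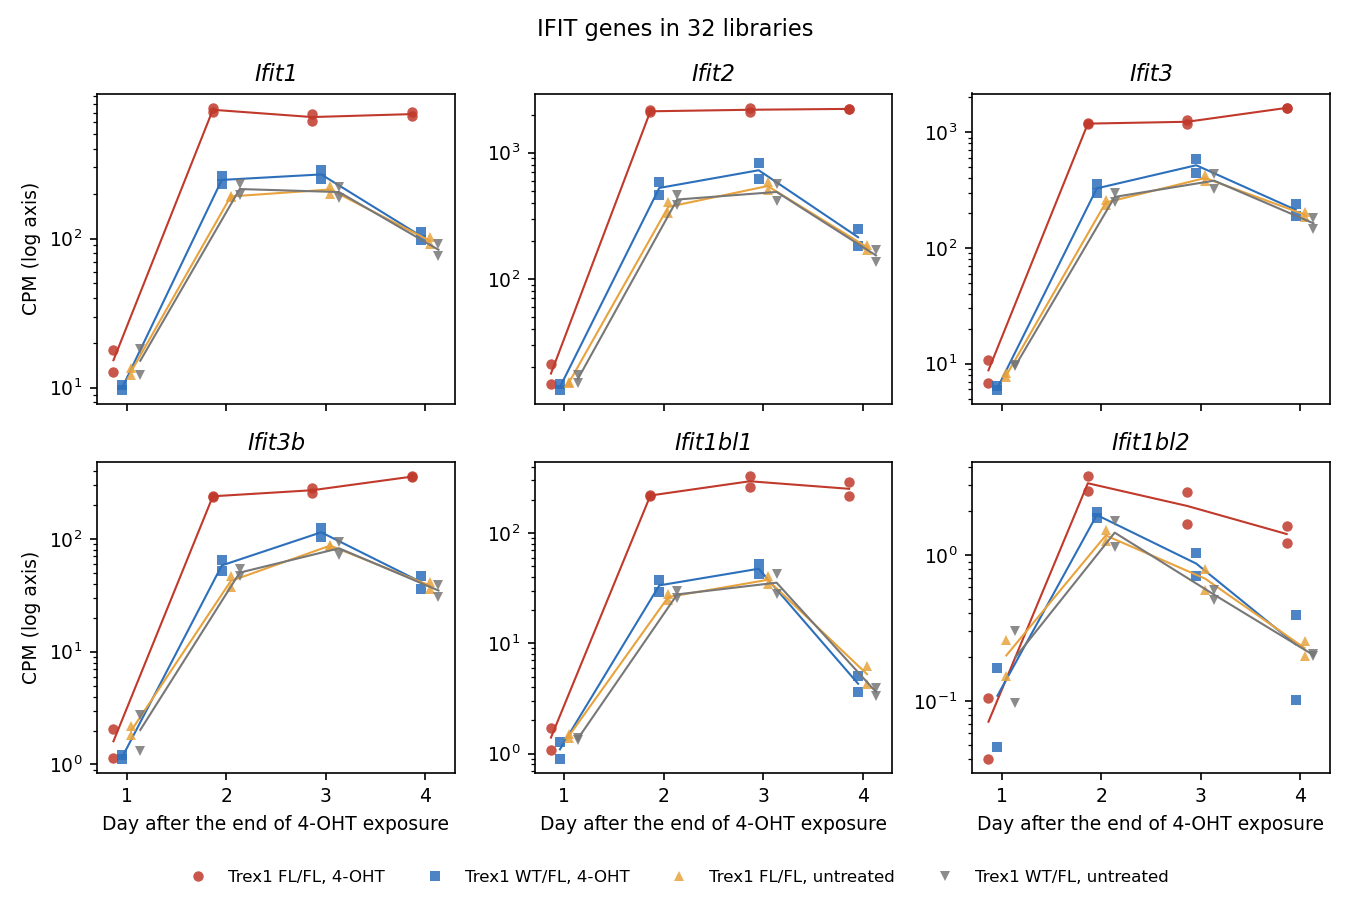
CPM on a log axis against the day after 4-OHT exposure for each IFIT gene, where points are the 2 libraries of a group, lines join group means, and colours and shapes mark genotype and treatment. For *Ifit2*, the libraries of 4-OHT-treated FL/FL cells stood at 2093 to 2273 CPM on days 2 to 4, while those of 4-OHT-treated WT/FL cells went from 829 CPM at most on day 3 to 181 and 247 CPM on day 4.

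Whether loss of *Trex1* changed IFIT expression was addressed by comparing FL/FL with WT/FL cells after 4-OHT on each day. All 6 members rose on day 4, by log2 fold changes from 2.54 to 5.89 (median 3.01, against −0.04 for the median of all tested genes). On day 2, 5 members rose, with *Ifit1bl2* as the exception, and on day 3 only *Ifit1bl1* and *Ifit2* passed both thresholds. A call needed a log2 fold change past 1.5 in either direction and a Benjamini-Hochberg adjusted p below 0.01 over all tested genes (edgeR, quasi-likelihood). Of the 6 members, 0, 5, 2 and 6 were called on days 1 to 4, beside 0.00655, 0.498, 0.485 and 1.65% of all tested genes called upward on those days. Without the threshold on the fold change, 5 members passed on day 3, beside 6.69% of all tested genes.

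*Ifit1*, which encodes the cap-binding member, stood at 705 and 755 CPM in FL/FL against 263 and 231 CPM in WT/FL cells on day 2 after 4-OHT. On day 3 its FL/FL libraries held 689 and 616 CPM against 250.2 and 288 CPM, and on day 4 they held 705 and 661 CPM against 98.0 and 110.5 CPM. The groups did not overlap on these days, and the FL/FL level stayed in the same range while the WT/FL level fell on day 4. The log2 fold change was 1.56 (SE 0.162, edgeR adjusted p = 1.87e-06) on day 2, 1.28 (SE 0.161, adjusted p = 1.67e-05) on day 3 and 2.71 (SE 0.17, adjusted p = 7.43e-10) on day 4. Without library 2 of the WT/FL cells on day 2, the value of that day was 1.47 and no longer past the fold threshold.

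*Ifit2* encodes a member that can pair with IFIT3 and has been linked to cell death. Its FL/FL libraries held 2093 and 2158 CPM on day 2, 2273 and 2099 CPM on day 3 and 2205 and 2236 CPM on day 4 after 4-OHT. The WT/FL libraries held 585 and 466 CPM, then 622 and 829 CPM, then 181 and 247 CPM on the same days. FL/FL libraries were thus above all WT/FL libraries on each of these days, with the widest gap on day 4. The log2 fold change was 2.02 (SE 0.205, edgeR adjusted p = 1.91e-06) on day 2, 1.59 (SE 0.203, adjusted p = 2.23e-05) on day 3 and 3.38 (SE 0.217, adjusted p = 1.69e-09) on day 4. Left out in turn, library 1 of the WT/FL cells on day 3 brought the value of that day to 1.40, under the fold threshold.

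*Ifit3* and *Ifit3b* encode closely related proteins, of which IFIT3 is known as a binding partner that stabilises other IFIT proteins. After 4-OHT, *Ifit3* stood at 1171 and 1202 CPM in FL/FL against 355 and 299.7 CPM in WT/FL cells on day 2, and on day 4 at 1614 and 1631 CPM against 187 and 240.2 CPM. On day 3 it stood at 1286 and 1176 CPM against 446 and 591 CPM. The FL/FL level of *Ifit3* was highest on day 4, when WT/FL cells were below their day 2 level. *Ifit3b* held 243 and 236 CPM in FL/FL against 64.8 and 51.8 CPM in WT/FL cells on day 2, 285 and 257 CPM against 103.2 and 126 CPM on day 3, and 355 and 359.9 CPM against 36.0 and 47.35 CPM on day 4. Their log2 fold changes were 1.86 (SE 0.185) and 2.04 (SE 0.201) on day 2, 1.25 (SE 0.182) and 1.24 (SE 0.195) on day 3, and 2.93 (SE 0.193) and 3.10 (SE 0.21) on day 4, in the order *Ifit3* and *Ifit3b*. With the counts of the pair summed before the fit, which removes the division of reads between them, the values were 1.89, 1.25 and 2.96 on days 2, 3 and 4.

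*Ifit1bl1*, a mouse paralogue of *Ifit1* whose function is less well known, had the largest genotype difference of the 6 on days 2, 3 and 4. Its FL/FL libraries held 222 and 217 CPM on day 2, 327 and 263 CPM on day 3 and 289 and 215 CPM on day 4 after 4-OHT. The WT/FL libraries held 37.9 and 29.2 CPM, then 42.6 and 52.4 CPM, and then only 3.595 and 5.01 CPM. The FL/FL level thus stayed high while the WT/FL level dropped on day 4, though it remained above its day 1 value of 1.29 and 0.899 CPM. The log2 fold change was 2.71 (SE 0.217, edgeR adjusted p = 1.12e-07) on day 2, 2.64 (SE 0.214, adjusted p = 1.31e-07) on day 3 and 5.89 (SE 0.265, adjusted p = 1.1e-11) on day 4, which is 59.2-fold.

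*Ifit1bl2*, the other *Ifit1* paralogue on the minus strand, was the least abundant member, with 2 to 140 counts per library. After 4-OHT its FL/FL libraries held 140 and 99 counts on day 2, 93 and 95 on day 3 and 57 and 40 on day 4. WT/FL libraries held 90 and 99, 38 and 46, and 6 and 18 counts on these days. The counts met on day 2, while the CPM of the groups did not overlap on any of the 3 days. Its log2 fold change was 0.72 (SE 0.454, edgeR adjusted p = 0.378) on day 2, 1.30 (SE 0.473, adjusted p = 0.054) on day 3 and 2.54 (SE 0.533, adjusted p = 0.000479) on day 4. The day 4 call rested on library 1 of the WT/FL cells, without which the value was 1.83 (adjusted p = 0.0262).

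On day 1, when *Trex1* counts were already at 0 in both libraries of 4-OHT-treated FL/FL cells, no member was called. These counts are of RNA, and the study still found much TREX1 protein on day 2 and none detectable on day 4. The day 1 log2 fold changes ran from −0.57 for *Ifit1bl2* to 0.60 for *Ifit1*, each with an edgeR adjusted p of 1, and 2 members had an unadjusted p under 0.05. *Ifit1* stood at 17.9 and 12.7 CPM against 10.5 and 9.65 CPM, and *Ifit3* at 10.8 and 6.77 CPM against 6.41 and 5.93 CPM. Both FL/FL values were above both WT/FL values for these genes, but neither difference passed adjustment. For *Ifit2*, FL/FL libraries at 21.0 and 14.6 CPM overlapped WT/FL libraries at 13.2 and 14.6 CPM. DESeq2 called 0 members on day 1 as well.

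**Figure D3:**
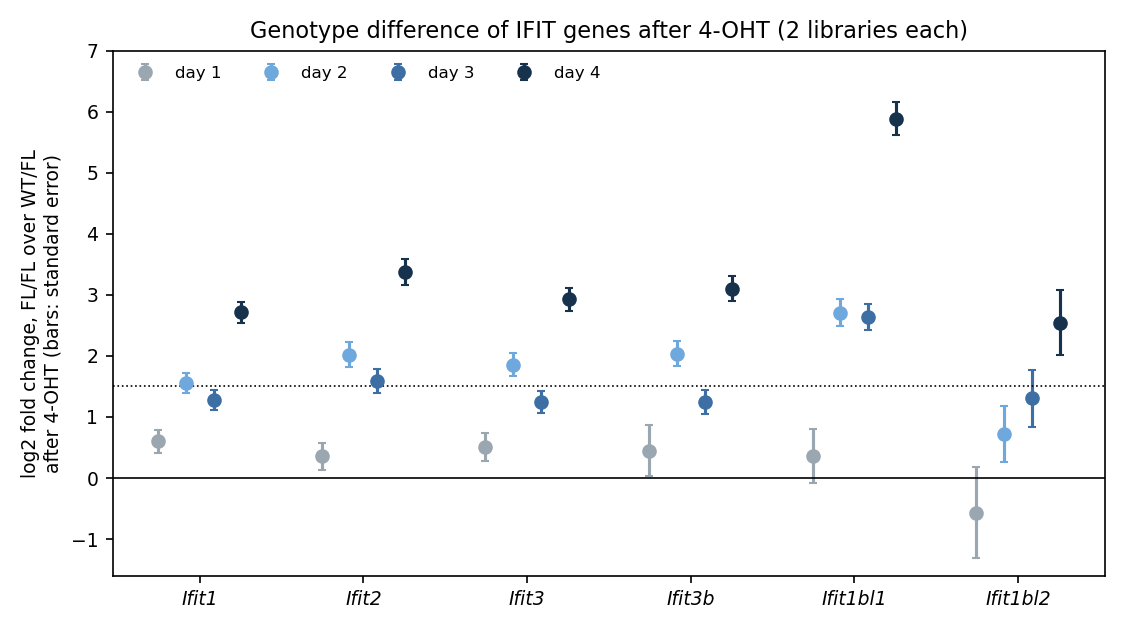
Log2 fold change of FL/FL over WT/FL cells after 4-OHT from the edgeR fit for each IFIT gene and day (2 libraries per group, bars are standard errors, dotted line at the threshold of 1.5). All day 4 values lie above 2.5, *Ifit1bl1* reaches 5.89, and day 3 values of *Ifit1*, *Ifit3*, *Ifit3b* and *Ifit1bl2* lie under the dotted line.

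The size of the response differed between members. Over days 2 to 4, the mean difference in log2 CPM between FL/FL and WT/FL cells after 4-OHT was 3.74 for *Ifit1bl1*, 2.34 for *Ifit2*, 2.13 for *Ifit3b*, 2.02 for *Ifit3*, 1.85 for *Ifit1* and 1.49 for *Ifit1bl2*. Permuting genotype within days over these 12 libraries gave p = 0.0093 for each member (two-sided exact permutation test, all arrangements). This is the smallest p that permuting within days allows. The test treats libraries of different days as separate samples. Of the 15 pairs of members, 8 differed at an adjusted p of 0.0174 in the same exact permutation test with Benjamini-Hochberg adjustment over the pairs (raw p = 0.0093 each). *Ifit1bl1* exceeded each of the other 5 members, by 1.40 over *Ifit2*, 1.60 over *Ifit3b*, 1.72 over *Ifit3*, 1.89 over *Ifit1* and 2.25 over *Ifit1bl2*. *Ifit2* exceeded *Ifit1* by 0.49, *Ifit3* by 0.32 and *Ifit1bl2* by 0.85, and these 3 calls depended on the setting. Over days 1 to 4 the differences from *Ifit1* and *Ifit3* had an adjusted exact permutation p of 0.0521, which left 6 of 15 pairs, and with a prior count of 0.5 that from *Ifit1bl2* had 0.0631. *Ifit3b* and *Ifit3* were only 0.12 apart (exact permutation p = 0.037, adjusted 0.0505), and their order turned on day 3, at −0.01. *Ifit1* and *Ifit1bl2*, the back-to-back pair, differed by 0.37 (exact permutation p = 0.194), with daily values of 0.86, 0.03 and 0.20 on days 2, 3 and 4.

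The change of the genotype difference between days was tested next. Between days 1 and 2 it rose for *Ifit1bl1* by 2.35 (SE 0.499, edgeR adjusted p = 0.00763) and for *Ifit2* by 1.66 (SE 0.301, adjusted p = 0.00223), 2 of 6 members beside 0.19% of all tested genes. In a fit of the 16 4-OHT libraries alone neither of these passed, with adjusted p of 0.0447 and 0.0182. Between days 2 and 3 no member was called upward (0.0328% of all tested genes were), and DESeq2 called none. The median change was −0.36, and both members with an unadjusted p under 0.05, *Ifit3b* at −0.80 and *Ifit3* at −0.61, changed downward without passing adjustment (edgeR adjusted p = 0.148 and 0.257). Between days 3 and 4 the difference rose for *Ifit1bl1* by 3.25 (SE 0.323, edgeR adjusted p = 4.55e-06), *Ifit3b* by 1.86 (SE 0.277, adjusted p = 0.000287), *Ifit2* by 1.79 (SE 0.282, adjusted p = 0.000532) and *Ifit3* by 1.68 (SE 0.255, adjusted p = 0.000367). These were 4 of 6 members beside 0.21% of all tested genes. The value for *Ifit1*, 1.43 (SE 0.226, adjusted p = 0.000464), was under the fold threshold, and that for *Ifit1bl2* was 1.24 (SE 0.704, adjusted p = 0.374).

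Changes between days were also tested within each arm. From day 1 to day 2 all 6 members rose in all 4 arms, beside 4.37% of all tested genes called upward in 4-OHT-treated FL/FL, 3.34% in untreated FL/FL, 3.32% in 4-OHT-treated WT/FL and 3.35% in untreated WT/FL cells. The median log2 change of the 6 was 6.99 in 4-OHT-treated FL/FL cells, 5.09 in 4-OHT-treated WT/FL cells, 4.29 in untreated FL/FL cells and 4.49 in untreated WT/FL cells. In untreated WT/FL cells, *Ifit2* thus went from 17.3 and 14.9 CPM to 466 and 385 CPM, and *Ifit3* from 9.48 and 9.66 CPM to 300.1 and 252 CPM. The rise between these days was present without 4-OHT and with intact *Trex1*. The summed level of the 7 macrophage markers moved with it, from 15020 to 17030 CPM over the libraries of day 1 to 26240 to 33690 CPM over those of day 2, and the part of this in the IFIT rise was not tested. *Lyz2*, at 11130 to 33990 CPM over all libraries, was the most abundant of the 7 and weighs most in this sum. In RNA of whole cultures, a change in the share of cells that express a gene cannot be told apart from a change in RNA per cell.

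From day 2 to day 3 no member was called upward in any arm, beside 1.28, 1.72, 1.85 and 1.7% of all tested genes in 4-OHT-treated FL/FL, untreated FL/FL, 4-OHT-treated WT/FL and untreated WT/FL cells. DESeq2 called none either. In these arms 1, 4, 5 and 3 members had an unadjusted edgeR p under 0.05, in either direction. *Ifit1bl2* was among them as a fall, at −1.11 in 4-OHT-treated WT/FL and −1.41 in untreated WT/FL cells. At an adjusted p below 0.01 without a fold threshold, 0, 2, 2 and 1 members rose in the same order of arms. Of all 15257 tested genes, 2304, 2856, 2698 and 2612 did. From day 3 to day 4 most members fell in the 3 arms with *Trex1*. *Ifit1bl1* dropped by 3.48 (SE 0.254, edgeR adjusted p = 3.96e-08) in 4-OHT-treated WT/FL cells, which is 11.1-fold, by 3.30 (SE 0.268, adjusted p = 1.23e-07) in untreated WT/FL and by 2.88 (SE 0.256, adjusted p = 4.9e-07) in untreated FL/FL cells. *Ifit2* dropped by 1.76, 1.67 and 1.61 in the same order, and these 2 members were the ones called in each arm, beside 0.511, 0.341 and 0.347% of all tested genes called downward. At an adjusted p below 0.01 without a fold threshold, 5 members fell in each arm, beside 5.93, 6.39 and 7.18% of all tested genes. In 4-OHT-treated FL/FL cells 0 members were called downward (0.577% of all tested genes were, and DESeq2 called 0 members), the log2 changes ran from −0.63 for *Ifit1bl2* to 0.40 for *Ifit3b*, and 1 member had an unadjusted p under 0.05. The difference between the 4-OHT-treated arms in this step is the change of the genotype difference from day 3 to day 4 given above.

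Between untreated FL/FL and WT/FL cells 0 of 6 members were called on any day, beside 0.0, 0.0, 0.0 and 0.00655% of all tested genes called upward on days 1 to 4. No member had an unadjusted edgeR p under 0.05 on any of these days, DESeq2 called none, and the widest value was 0.52 (SE 0.312) for *Ifit1bl1* on day 4. Between 4-OHT-treated and untreated WT/FL cells 0 members were called on any day either, beside 0.0, 0.0, 0.00655 and 0.0% of all tested genes, and DESeq2 called none. All 6 values were below 0 on day 1 (median −0.61) and above 0 on days 2, 3 and 4 (medians 0.26, 0.46 and 0.28). Medians of all tested genes were 0.0017, 0.004, 0 and 0.0069 on days 1 to 4. The 6 were measured in the same libraries, so a shared sign does not count as 6 separate results. An unadjusted p under 0.05 was reached by 2, 0, 4 and 2 members on days 1 to 4, with *Ifit2* at 0.57 (SE 0.199, edgeR adjusted p = 0.356) on day 3. For counts at an unadjusted p, here and in the other comparisons, the share of all tested genes was not computed.

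Within FL/FL cells, 4-OHT against untreated gave 0, 5, 5 and 6 called members on days 1 to 4, beside 0.0, 0.898, 0.983 and 1.79% of all tested genes. On day 1, 1 member had an unadjusted p under 0.05 and DESeq2 called none. On day 4 the log2 fold changes were 5.62 (SE 0.263) for *Ifit1bl1*, 3.64 (SE 0.22) for *Ifit2*, 3.21 (SE 0.212) for *Ifit3b*, 3.06 (SE 0.194) for *Ifit3*, 2.82 (SE 0.171) for *Ifit1* and 2.56 (SE 0.542) for *Ifit1bl2*. This comparison shares its treated libraries with that between genotypes. Without library 2 of untreated FL/FL cells on day 4, *Ifit1bl2* was at 2.42 (edgeR adjusted p = 0.0103) and not called. The interaction of genotype and 4-OHT, which takes both controls off together, called 0, 5, 1 and 5 members on days 1 to 4, beside 0.0, 0.492, 0.36 and 1.23% of all tested genes. On day 1, 2 members had an unadjusted interaction p under 0.05 and DESeq2 called none. On day 3 it was past both thresholds for *Ifit1bl1* alone, at 2.55 (SE 0.299, edgeR adjusted p = 3.48e-05), and 4 members were past the adjusted p alone, beside 2.65% of all tested genes. On day 4 *Ifit1bl1* was at 5.37 (SE 0.414) and *Ifit1bl2* at 2.37 (SE 0.816, edgeR adjusted p = 0.0473).

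Between genes, levels were compared as CPM per kb of annotated exon. *Ifit3* and *Ifit2* were the 2 highest members and *Ifit1bl2* the lowest in all 32 libraries. *Ifit3* was above *Ifit2* in 29 libraries, but in only 21 when the longest transcript was taken as the length, so their order depends on the annotation. *Ifit1* and *Ifit3b* had no fixed order, with *Ifit1* higher in 14 libraries. *Ifit1bl1* was above *Ifit1* in 5 libraries and below it in the other 27.

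The make-up of the family moved with day and genotype. The share of *Ifit1* in the family sum of mean CPM per kb was 21.6% on day 1 and 6.98% on day 4 in 4-OHT-treated FL/FL cells, and 19.6 and 9.57% in 4-OHT-treated WT/FL cells. The share of *Ifit3* went from 31.9 to 42.7% and from 30.8 to 50.5% over the same days. *Ifit1bl1* made up 8.46% in 4-OHT-treated FL/FL cells on day 4 against 1.30% in 4-OHT-treated WT/FL, 1.76% in untreated FL/FL and 1.42% in untreated WT/FL cells. On day 1 its share was 6.48% in 4-OHT-treated FL/FL, 6.97% in 4-OHT-treated WT/FL, 7.32% in untreated FL/FL and 6.19% in untreated WT/FL cells. The day 4 share was thus higher than that of day 1 in 4-OHT-treated FL/FL cells and lower in the other 3 arms.

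**Figure D4:**
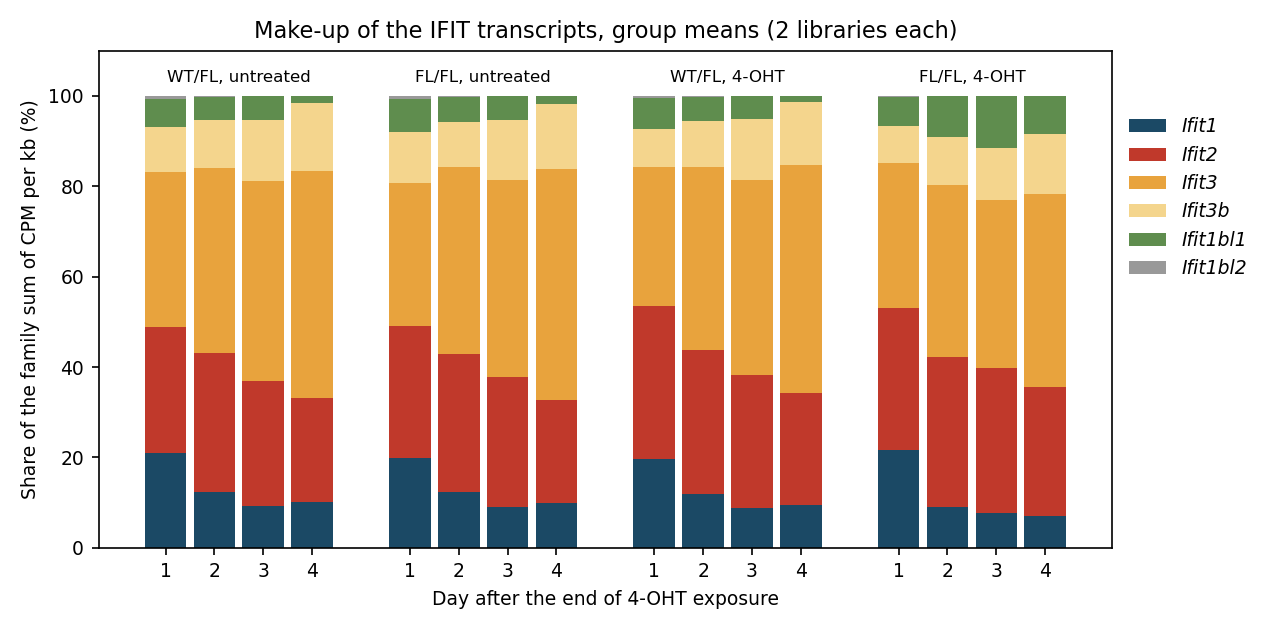
Share of each IFIT gene in the family sum of mean CPM per kb of exon (%, stacked bars from 0 to 100, means of 2 libraries) by day in each of the 4 arms. The *Ifit1bl1* share on day 4 is 8.46% in 4-OHT-treated FL/FL cells and 1.30 to 1.76% in the other arms.

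As a description over the 16 group means, genes outside the family whose log2 CPM followed *Ifit2* most closely included *Adar* (Pearson r = 0.9989) and *Ifih1* (0.9987). For *Ifit1* they were *Dhx58* and *Irgm1* (0.9984 each) and *Mx2* (0.9979), for *Ifit3* they were *Trafd1* (0.9993), *Ifi209* (0.9992) and *Iigp1* (0.998), and for *Ifit3b* they were *Ifi209* (0.999), *Trafd1* (0.9988) and *Slfn8* (0.9983). *Ifit1bl1* was followed by *Enpp4* (0.9889), *Milr1* (0.9886) and *Tor3a* (0.9874), and *Ifit1bl2* by *Tagap* (0.9774), *Or2v1* (0.9756) and *Trim30b* (0.971). Within the family, *Ifit1* and *Ifit2* had r = 0.9983 and *Ifit3* and *Ifit3b* had r = 0.9985, and only 2 tested genes outside followed *Ifit1* more closely than *Ifit2* did. For *Ifit1bl1* the closest member was *Ifit2* (0.9605), and 80 genes followed it more closely. *Ifit1bl2* was less like the other members, with r from 0.9242 for *Ifit1bl1* down to 0.8183 for *Ifit3b*. All points share the rise from day 1 to day 2.

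Of the 3 nearest tested protein-coding genes on each side, 0 were called on any day between FL/FL and WT/FL cells after 4-OHT. Of all 15257 tested genes, 1, 76, 74 and 252 were called upward and 1, 13, 59 and 202 downward on days 1 to 4. At these shares, 0 calls among so few genes says nothing particular to them. *Lipa*, which encodes lysosomal acid lipase and ends 5.77 kb before *Ifit2*, stood at 1681 CPM in FL/FL and 1816 CPM in WT/FL cells on day 4 (group means), with a log2 difference of −0.11 (edgeR adjusted p = 0.15). *Ch25h*, an interferon-inducible hydroxylase of cholesterol 75.4 kb away, was at 1.12 (adjusted p = 0.113) on day 2 and 0.78 (adjusted p = 0.431) on day 4. *Fas*, on the same side, was at −0.76 (edgeR adjusted p = 4.44e-05) on day 4. On the other side, *Pank1* was at −0.69 (adjusted p = 6.3e-05) and *Kif20b* at −1.03 (adjusted p = 2.95e-05) on day 4. These 3 values were under the fold threshold. *Slc16a12*, 2.81 kb after the cluster, was near 0, with group means of 0.247 CPM in FL/FL and 0.172 CPM in WT/FL cells on day 1.

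Other interferon-related genes are given from lists of the pathway. Of 20 tested interferon-induced effectors, 0, 8, 4 and 14 were called upward between FL/FL and WT/FL cells after 4-OHT on days 1 to 4 and none downward (medians 0.29, 1.31, 0.99 and 2.21, beside medians of all tested genes between −0.04 and −0.01). Of all tested genes, 0.00655, 0.498, 0.485 and 1.65% were called upward on these days, the share beside each list here. On day 4 *Cxcl10* was at 3.65, *Rsad2* at 3.42 and *Mx1* at 3.27, next to 3.38 for *Ifit2*. Of the oligoadenylate synthetase genes in the list, *Oasl1* at 2.88 and *Oas3* at 2.19 were called, while *Oas1a* at 1.39, *Oasl2* at 1.25 and *Oas2* at 0.75 did not pass the fold threshold. Of 20 tested genes of interferon induction and signalling, 0, 3, 0 and 7 were called upward on these days. Among the 7 of day 4 were *Ifnb1* at 7.15 (edgeR adjusted p = 0.0062), *Isg15* at 2.91 and *Usp18* at 2.72. *Irf7* at 2.38, the signalling factor *Stat2* at 1.99 and *Socs1* at 1.80 were called that day too. *Irf9*, the partner of STAT2 in transcription, was at 0.26 (edgeR adjusted p = 0.000267), under the fold threshold. *Ifnar1*, of the same list, was at −0.37 (edgeR adjusted p = 2.62e-05). *Irf3* was at −0.06 and *Sting1* at 0.19 on day 4. Of 8 tested RNA sensors and translation partners, *Dhx58* alone was called, at 1.63 on day 4. At an adjusted p below 0.01 without a fold threshold, 5 of the 8 rose that day, beside 1502 of all 15257 tested genes. *Ifih1* was at 1.41, *Rigi* at 1.34, *Eif2ak2* at 0.82 and *Zc3hav1* at 0.52. The initiation factor subunits *Eif3c* and *Eif3e*, bound by IFIT proteins, were at −0.08 and 0.10. Of 9 tested genes that build or remove the RNA cap, the end that IFIT1 reads, 0 were called on any day. On day 4, 252 of all 15257 tested genes were called upward and 202 downward, so that 0 of 9 says nothing particular to these genes. *Rngtt*, also of this list, was at −0.34 (edgeR adjusted p = 0.0025) on day 4. *Cmtr1*, which methylates the ribose next to the cap, was at 0.51 on day 2, 0.33 on day 3 and 0.59 (edgeR adjusted p = 9.49e-08) on day 4.

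Among other values compared between genotypes, the summed macrophage markers were at 26240 and 28250 CPM in 4-OHT-treated FL/FL against 31670 and 33690 CPM in 4-OHT-treated WT/FL cells on day 2. The sums were 38250 and 38730 against 45010 and 47280 CPM on day 3, and 28560 and 30510 against 30220 and 30990 CPM on day 4, when they overlapped. The 6 neutrophil and progenitor markers summed to 5.59 and 6.27 CPM against 7.52 and 14.8 CPM on day 4. Their sums overlapped on day 2, at 6.83 and 6.99 against 5.66 and 11.85 CPM, and on day 3, at 4.44 and 6.29 against 6.14 and 17.4 CPM. The part of either marker set in the IFIT differences was not tested.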

How the data were processed

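RNA-seq libraries of BMDMs were analysed from the deposited table of estimated counts per gene, which the authors made by quantifying transcripts with Salmon and summing them per gene with tximport; the counts are whole numbers without normalization, and the labels name GRCm39. The annotation release used by the authors and the strandedness of the libraries are not given in the sources used here. Members were found by Ensembl identifier without version in GENCODE vM39, which matched 51048 of 54281 identifiers (the others held 0.32% of counts). The members and lists were chosen with earlier results of these data known. edgeR 4.0.16 in R 4.3.3 (TMM, filterByExpr with a minimum count of 10, a mean for each of 16 groups, 16 residual degrees of freedom) tested all 15257 genes, and adjusted p-values are over all of them. CPM use TMM-scaled library sizes, and log2 CPM a prior count of 2. For 2 libraries against 2, an exact permutation test cannot go below p = 0.33. On simulated data with 15079 genes, the test found 197 of 200 planted changes of 2.5 (log2) and called 1 unchanged gene. Shared sequence was counted as 31-base words. DESeq2 1.42.0, upper-quartile and RLE factors served as alternatives, as did other filters, fits of fewer libraries, a term for the library number, other thresholds, summed pairs, other prior counts, days, lengths and promoter windows, and leaving out each library. Named genes were the members, *Trex1*, the 3 genes most like each member, the 3 nearest neighbours on each side and the listed genes. The listed genes not tested after the filter, such as *Ifna4*, are not reported, and neither is 1 gene of the rule. Counting error only is covered by the depth given.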

Additional observations from a re-analysis of the deposited data

Results flagged for a closer look

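The effect of 4-OHT differed between FL/FL and WT/FL cells, by the interaction term of the edgeR model, for 5 members on day 2: *Ifit1bl1* by 2.79, *Ifit3b* by 2.29, *Ifit2* by 2.21, *Ifit3* by 2.02 and *Ifit1* by 1.73 (log2). On day 3 it differed for *Ifit1bl1* by 2.55. On day 4 it differed for *Ifit1bl1* by 5.37, *Ifit2* by 3.16, *Ifit3b* by 2.95, *Ifit3* by 2.67 and *Ifit1* by 2.51.

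The genotype difference after 4-OHT itself differed between days 1 and 2 for *Ifit1bl1* by 2.35 and *Ifit2* by 1.66, and between days 3 and 4 for *Ifit1bl1* by 3.25, *Ifit3b* by 1.86, *Ifit2* by 1.79 and *Ifit3* by 1.68, by the test of that change. Groups of 2 libraries are too small for a test of single libraries that stand apart.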

How the results depend on the processing

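No paired analysis was possible because the labels give no replicate number that pairs libraries across groups. A term within each genotype for the lower against the higher library number of each group, which the labels do not call a pair or batch, was fitted in its place. The counts of called members were computed under other settings of the fit and thresholds and with each library left out. At an adjusted p below 0.01 without a fold threshold, members called numbered 5 for the genotype difference and 4 for the interaction on day 3, 2, 2 and 1 from day 2 to day 3 in untreated FL/FL, 4-OHT-treated WT/FL and untreated WT/FL cells, and 5 in each of these arms from day 3 to day 4. With a log2 fold change of 1.5 as the null inside the model (glmTreat), a stricter rule, 1 member was called for the genotype difference on day 2 and 1 on day 3, 3 and 1 for 4-OHT in FL/FL cells on days 2 and 3, 0 and 0 for the interaction on days 2 and 3, 0 and 1 for the change from day 1 to 2 and from day 3 to 4, and 0, 1 and 1 for the fall from day 3 to day 4 in the 3 arms above. The change from day 1 to day 2 had 0 calls in the fit of the 16 4-OHT libraries and 1 with a term for the library number. Leaving out single libraries moved the day 3 count between 1 and 2, and the day 1 log2 fold change between −1.36 and 0.55 for *Ifit1bl2*, −0.03 and 0.82 for *Ifit3b* and −0.0037 and 0.65 for *Ifit1bl1*. With its counts summed with those of *Ifit1bl1*, *Ifit1bl2* turned to 0.29 on day 1. Of the 834 single values under other settings in the comparisons whose values are not printed member by member, 35 changed sign and 0 newly passed the thresholds. The causes were not tested. The depth limits *Ifit1bl2* (2 to 140 counts per library). The core was found before 5 members with GENCODE starts too, beside 7.05% of GENCODE protein-coding genes, an alternative chosen after seeing the data.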
